A study of Homo sapiens with 6 samples.

Results

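The genes described here are 10 effectors and regulators of the canonical Wnt pathway: the DNA-binding factors TCF7, LEF1, TCF7L1 and TCF7L2, their coactivator beta-catenin (CTNNB1) and its adaptor BCL9, the beta-catenin destruction complex genes AXIN1, AXIN2 and APC, and the secreted Wnt antagonist SFRP5. They were taken by name from gene-level expression tables of MOLT-4, a human cell line grown from a T-cell acute lymphoblastic leukemia (T-ALL), and all 10 were found among 60640 gene identifiers. PolyA RNA was sequenced from 3 wild type (WT) libraries, which the labels call the control of the CRISPR knockout without saying whether they carry a guide, and from 3 libraries labelled IK-KO, in which CRISPR-Cas was aimed at IKZF1, the gene of the lymphoid DNA-binding protein IKAROS. Both were grown in RPMI1640 medium with serum, and the labels name no further treatment. The study bought both lines from a supplier and blotted more than a single knockout clone, and the labels do not say which clone was sequenced, so a difference between the groups cannot be told apart from a difference between clones. The labels also do not say whether replicates were separate cultures, so p-values measure only the spread between these libraries.

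In the canonical pathway, a Wnt ligand bound to a Frizzled receptor and an LRP coreceptor stops a complex of AXIN, APC and kinases from marking beta-catenin for degradation. Beta-catenin then enters the nucleus and binds TCF/LEF factors, which otherwise hold target genes silent with TLE corepressors. TCF7 (the gene of TCF-1) and LEF1 are the members of this family that developing T cells use most, and they act in T-cell specification and in the survival and maturation of thymocytes, partly without beta-catenin. AXIN2 is both a part of the destruction complex and a common target of the pathway, and its RNA is widely used as a readout of it.

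The values are FPKM (fragments per kilobase of transcript, scaled to the mapped total of the library), which allow for length, so levels of different genes can be compared. The FPKM summed to between 699352 and 738051 per library, and relative depth, judged from the width of the confidence bounds in the tables, lay between 0.897 and 1.09 of the mean over the 6 libraries. IKZF1, the targeted gene, was at 134, 124 and 105 FPKM in WT and the libraries labelled IK-KO held 207, 260 and 207 FPKM. Its RNA was higher in the edited group, by 0.89 ± 0.12 (SE) in log2 units (limma adjusted p 0.00295), and the tables hold no sequence from which the edit could be read. Of 14 T-lineage markers, 13 were at 1 FPKM or more in every library. The 14 markers summed to between 4863 and 5141 FPKM in WT and between 5662 and 6139 FPKM in IK-KO. Most of this sum was TRBC2, at 3357 ± 119 FPKM in WT and 4118 ± 151 FPKM in IK-KO (SD, n = 3). Markers of B cells, myeloid cells, fibroblasts and epithelium (6 genes each) summed to no more than 3.66 FPKM in any library, and none was at 1 FPKM or more in every library. Of the T-lineage markers, 11 were called by the test described below (78.6%, beside 19.9% of all tested genes), 6 higher and 5 lower. The largest rise was that of CD247, from 66.0 ± 0.883 to 246 ± 15.4 FPKM (SD, n = 3). The largest fall was that of CD2, from 61.5 ± 2.45 to 5.14 ± 0.217 FPKM, and CD5, CD7, CD1E and TRAC were also lower. The part of these markers in the results was not tested.

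LEF1 and TCF7 stood far above the other members in every library. By mean FPKM over the 6 libraries they ranked 132 and 171 among all gene identifiers. In WT the order was LEF1 at 729 ± 48.3 FPKM, TCF7 at 499 ± 29.1, CTNNB1 at 44.9 ± 3.55, BCL9 at 13.4 ± 0.931, AXIN1 at 10.3 ± 0.346, APC at 6.91 ± 1.72, TCF7L2 at 4.43 ± 0.670 and AXIN2 at 3.95 ± 0.440 (SD, n = 3), with TCF7L1 under 0.2 FPKM and SFRP5 listed at 0. The ranges of TCF7L2 and AXIN2 overlapped, and those of all other neighbours in this order did not. In the libraries labelled IK-KO the order was the same down to APC, with AXIN2 next and TCF7L2 after it, and SFRP5 stood above TCF7L1. There the ranges of BCL9 and AXIN1 overlapped, as did those of APC and AXIN2 and those of AXIN2 and TCF7L2.

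**Figure D1:**
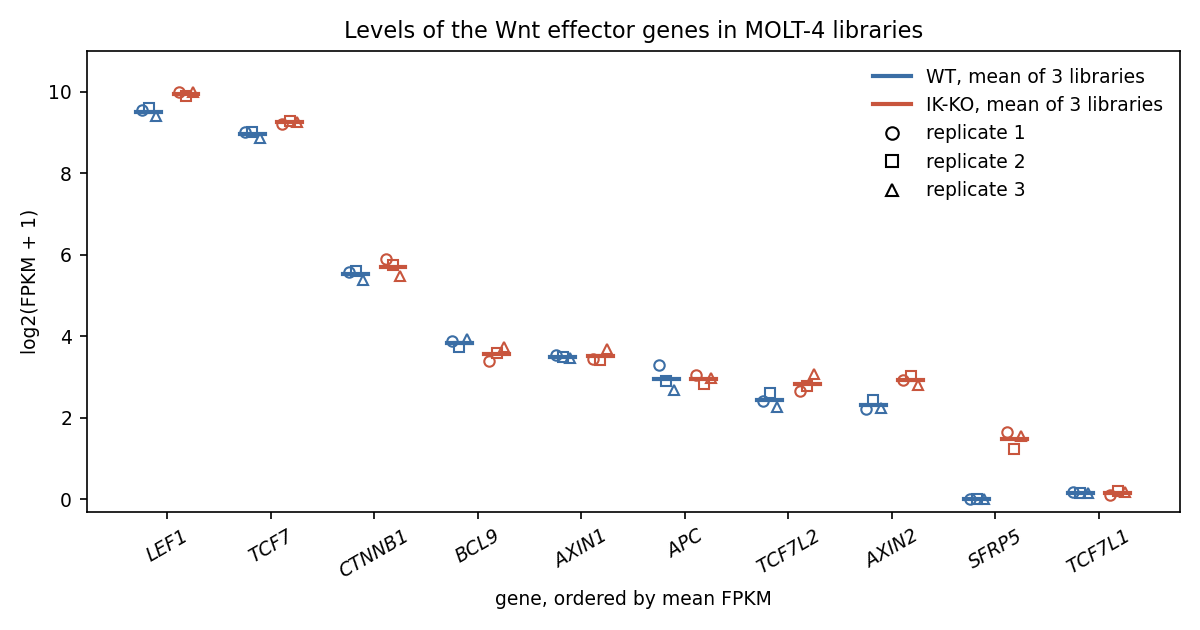
Level of each gene, as log2(FPKM + 1) on the vertical axis, in the 3 WT (blue) and 3 IK-KO (red) libraries. Symbols are single libraries and bars are means. LEF1 and TCF7 lie far above the rest, IK-KO lies above WT without overlap for LEF1, TCF7, TCF7L2, AXIN2 and SFRP5, and WT lies above IK-KO for BCL9.

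Of the 10 genes, 8 had a mean of at least 1 FPKM and were tested, together with all 12652 genes above that limit, by limma on log2(FPKM + 1). A gene is called when its Benjamini-Hochberg adjusted p over all tested genes is under 0.05. LEF1, TCF7 and AXIN2 were called, all higher in IK-KO. Such a count of 3 of 8 is read beside the 19.9% of all tested genes that were called, 10.1% higher and 9.75% lower. WT and IK-KO values were fully apart in 5 of the 8 tested members (BCL9, AXIN2, TCF7L2, TCF7 and LEF1), as they were in 39.0% of all tested genes. In these bulk libraries, a change in RNA per cell cannot be told apart from a change in the share of cells that hold it.

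LEF1 (ENSG00000138795.10, chromosome 4, 108047545 to 108168956 on GRCh38, minus strand) was at 745, 767 and 675 FPKM in WT replicates 1 to 3 and at 1011, 948 and 1010 FPKM in IK-KO replicates 1 to 3. Every IK-KO library lay above every WT library, and the lowest lower confidence bound in IK-KO, 927 FPKM, was above the highest upper bound in WT, 786 FPKM. The mean rose from 729 ± 48.3 to 989 ± 36.3 FPKM (SD, n = 3), which is 0.44 ± 0.06 (SE) in log2 units at a limma adjusted p of 0.00282. The antisense gene LEF1-AS1 overlaps LEF1 and lay between 1.97 and 3.24 FPKM in WT and between 3.37 and 3.95 FPKM in IK-KO, not called (limma adjusted p 0.160). Whether strand was used in quantification is not given in the sources used here, so reads of overlapping genes on opposite strands are uncertain, though LEF1-AS1 is listed far below LEF1.

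TCF7 (ENSG00000081059.20, chromosome 5, 134114681 to 134151865, plus strand) was at 517, 516 and 466 FPKM in WT and at 590, 615 and 609 FPKM in IK-KO. The groups did not overlap here either, and WT replicate 3 was the lowest library for both factors. The mean rose from 499 ± 29.1 to 604 ± 13.0 FPKM (SD, n = 3), which is 0.28 ± 0.05 (SE) in log2 units at a limma adjusted p of 0.0111. With the median change of the 20 tested genes on either side along the chromosome removed, the TCF7 change fell to 0.16 and was still called (limma adjusted p 0.0343), and that of LEF1 was 0.37. SKP1, a ubiquitin ligase subunit gene on the opposite strand, shares 134148935 to 134151865 with the end of TCF7. It was at 516, 532 and 434 FPKM in WT and at 706, 687 and 672 FPKM in IK-KO (0.48 ± 0.08 SE in log2 units, limma adjusted p 0.00604). It thus rose beside TCF7 from a similar level, and its part in the TCF7 value was not tested. The tables give 1 row per gene, so the long TCF-1 form that binds beta-catenin and the short form that lacks this domain cannot be told apart.

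The sequences before the start sites of the called factors were examined because IKAROS and the TCF/LEF factors both bind DNA at short core motifs. RefSeq promoters (GRCh38.p14, from 250 bases before each start) matched 9 of the 10 genes at 13 start sites, all but AXIN2. Searched on both strands were TGGGAA for IKAROS and TCAAAG and ACAAAG for TCF/LEF, none of which overlapped another in these promoters. The IKAROS core was present in 3 of the 13 promoters (TCF7, LEF1 and APC), where 24.0% of 35116 promoters of the same length hold it. A TCF/LEF core was present in 2 of the 13 (TCF7 and TCF7L2), where 26.2% of all promoters hold either. In the TCF7 promoter at the downstream start (134123618), the IKAROS core begins at position −163 relative to the start, and ACAAAG begins at −217 and −49. This stretch lies in an intron of longer TCF7 transcripts. The promoter at the upstream TCF7 start (134115613) holds none of these cores. In LEF1 the IKAROS core begins at position −197 relative to the RefSeq start, within an exon that GENCODE annotates from an earlier start, so only 30 bases around it are shown. APC, whose level did not differ beyond the spread, is shown as a promoter that carries the same core at position −30, with another match on the opposite strand at position 11, past the stretch shown. The promoter at the other APC start (112737885) holds none of the cores. Capitals mark the matches, and a match describes these letters and not binding.
TCF7, chr5:134123368-134123617, plus strand: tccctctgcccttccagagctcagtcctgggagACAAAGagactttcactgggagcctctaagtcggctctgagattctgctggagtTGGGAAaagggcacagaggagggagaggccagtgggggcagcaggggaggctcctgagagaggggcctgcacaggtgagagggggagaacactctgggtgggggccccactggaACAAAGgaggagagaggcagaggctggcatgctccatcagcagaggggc
LEF1, chr4:108166481-108166510, minus strand: ttgttccacaacTGGGAAaccctctggagg
APC, chr5:112707248-112707497, plus strand: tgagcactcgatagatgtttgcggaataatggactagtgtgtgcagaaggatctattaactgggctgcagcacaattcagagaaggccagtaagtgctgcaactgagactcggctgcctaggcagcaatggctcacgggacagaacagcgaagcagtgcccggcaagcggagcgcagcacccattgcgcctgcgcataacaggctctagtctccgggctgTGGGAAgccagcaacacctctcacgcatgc

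TCF7L2 and TCF7L1, the family members best known from epithelium and stem cells, were far lower. TCF7L2 (chromosome 10, 112950247 to 113167678) was at 4.36, 5.13 and 3.80 FPKM in WT and at 5.30, 5.82 and 7.44 FPKM in IK-KO. The groups did not overlap by a narrow margin, but the confidence bounds of single libraries did. The means were 4.43 ± 0.670 and 6.18 ± 1.11 FPKM (SD, n = 3), and the difference of 0.40 ± 0.15 (SE) in log2 units missed the threshold (limma adjusted p 0.107). TCF7L1 (chromosome 2, 85133392 to 85310387) lay between 0.0742 and 0.147 FPKM in all 6 libraries, each with a lower bound of 0, so it was not detectable above 0 at this depth, and it was not tested.

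The 4 factors together were therefore almost wholly LEF1 and TCF7. Their summed level was 1233 ± 77.4 FPKM in WT and 1600 ± 29.3 FPKM in IK-KO (SD, n = 3; exact permutation test, two-sided p 0.1, the smallest that 3 against 3 libraries allow). LEF1 held 59.1% ± 0.396 of the sum in WT and 61.8% ± 1.29 in IK-KO, TCF7 40.5% ± 0.429 and 37.8% ± 1.28, and TCF7L2 0.358% ± 0.0353 and 0.386% ± 0.0650 (SD, n = 3). LEF1 was 1.44, 1.49 and 1.45 times TCF7 in the WT libraries and 1.71, 1.54 and 1.66 times TCF7 in those labelled IK-KO. The log2 ratio of LEF1 to TCF7 thus rose by 0.17 without overlap between the groups, also at the smallest two-sided p of 0.1 in the exact permutation test.

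CTNNB1 (ENSG00000168036.18, chromosome 3, 41194741 to 41260096), which encodes beta-catenin, was at 46.3, 47.5 and 40.8 FPKM in WT and at 58.0, 52.7 and 43.7 FPKM in IK-KO. IK-KO replicate 3 lay within the WT range. The means of 44.9 ± 3.55 and 51.5 ± 7.26 FPKM (SD, n = 3) differed by 0.19 ± 0.11 (SE) in log2 units, which missed the threshold (limma adjusted p 0.289). Without that library the change was 0.30 and still not called (limma adjusted p 0.0775). RNA does not measure beta-catenin protein, which the destruction complex controls. BCL9 (chromosome 1, 147541501 to 147626216), the adaptor that links beta-catenin to Pygopus proteins, was at 13.7, 12.4 and 14.2 FPKM in WT and at 9.56, 10.98 and 12.3 FPKM in IK-KO. It was the only tested member with non-overlapping groups and lower values in IK-KO, with WT replicate 2 and IK-KO replicate 3 almost touching. The difference of −0.27 ± 0.11 (SE) in log2 units missed the threshold (limma adjusted p 0.116).

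**Figure D2:**
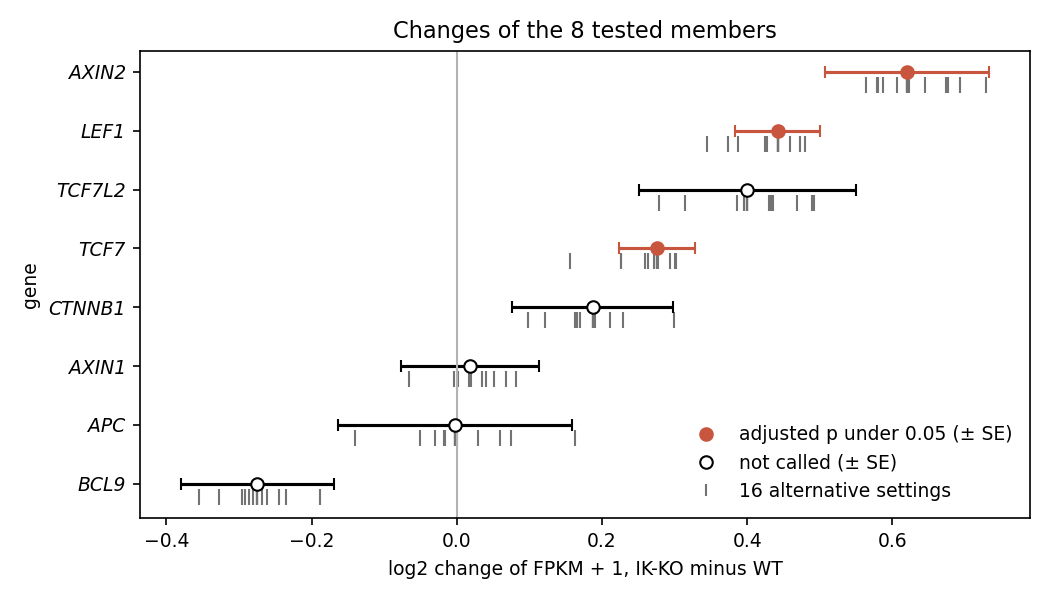
Log2 change of FPKM + 1, IK-KO minus WT, on the horizontal axis for the 8 tested genes, with ± SE. Filled red points are called and open points are not, and grey ticks are the same change under 16 other settings. AXIN2, LEF1 and TCF7 are called and stay above 0 under all 16.

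The destruction complex genes split. AXIN2 (ENSG00000168646.13, chromosome 17, 65528563 to 65561648, minus strand) was at 3.67, 4.46 and 3.72 FPKM in WT and at 6.56, 7.21 and 6.04 FPKM in IK-KO. All 3 IK-KO libraries lay above all WT libraries, but the bounds of IK-KO replicate 3 (5.10 to 6.99 FPKM) overlapped those of WT replicate 2 (3.53 to 5.38 FPKM). AXIN2 rose from 3.95 ± 0.440 to 6.60 ± 0.584 FPKM (SD, n = 3), the largest change of the tested members at 0.62 ± 0.11 (SE) in log2 units (limma adjusted p 0.00952). AXIN1 (chromosome 16, 287440 to 352723), its constitutive paralog, was at 10.7, 10.3 and 9.97 FPKM in WT and at 9.93, 9.68 and 11.8 FPKM in IK-KO. IK-KO replicate 3 was its highest library and IK-KO replicate 2 its lowest, and the groups differed by 0.02 ± 0.09 (SE) in log2 units (limma adjusted p 0.919). AXIN2 was accordingly 0.344, 0.433 and 0.373 times AXIN1 in WT and 0.660, 0.745 and 0.510 times AXIN1 in IK-KO (exact permutation test, two-sided p 0.1, the smallest possible).

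APC (ENSG00000134982.17, chromosome 5, 112707498 to 112846239), also part of the destruction complex, was at 8.79, 6.497 and 5.43 FPKM in WT and at 7.31, 6.13 and 6.93 FPKM in IK-KO. The WT libraries spanned the whole IK-KO range. The groups differed by −0.0024 ± 0.16 (SE) in log2 units (limma adjusted p 0.994). Neither AXIN1 nor APC had a stable direction, with changes from −0.07 to 0.08 and from −0.14 to 0.16 over the alternatives.

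SFRP5 (ENSG00000120057.5, chromosome 10, 97766751 to 97771999, minus strand) encodes a secreted protein that binds Wnt ligands through a Frizzled-like domain. It was listed at 0 in all 3 WT libraries and at 2.14, 1.35 and 1.92 FPKM in IK-KO replicates 1 to 3. The lower confidence bounds in IK-KO were 1.61, 0.965 and 1.47 FPKM, so each library held fragments of it. Its mean over the 6 libraries missed the limit of 1 FPKM and it was not tested, and since it was included with this pattern already known, the values are a description. No fold is given against a group at 0. Of the tested genes nearest to it, ZFYVE27, 5.84 kb away, was at 9.51 ± 0.807 and 10.99 ± 0.710 FPKM and was not called (limma adjusted p 0.195). MARVELD1, 48.6 kb away, rose from 2.12 ± 0.645 to 9.84 ± 1.72 FPKM (SD, n = 3), which is 1.80 ± 0.18 (SE) in log2 units at a limma adjusted p of 0.000795. On the other side R3HCC1L and HPS1, 363 and 644 kb away, were not called (limma adjusted p 0.907 and 0.288). The 250 bases before the SFRP5 start, shown because this is the member found in a single group, hold neither the IKAROS nor a TCF/LEF core.
SFRP5, chr10:97772000-97772249, minus strand: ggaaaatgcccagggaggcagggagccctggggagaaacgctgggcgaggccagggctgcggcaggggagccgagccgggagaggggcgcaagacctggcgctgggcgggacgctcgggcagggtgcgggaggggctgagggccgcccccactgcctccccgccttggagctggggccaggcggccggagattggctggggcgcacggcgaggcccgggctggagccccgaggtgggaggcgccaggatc

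**Figure D3:**
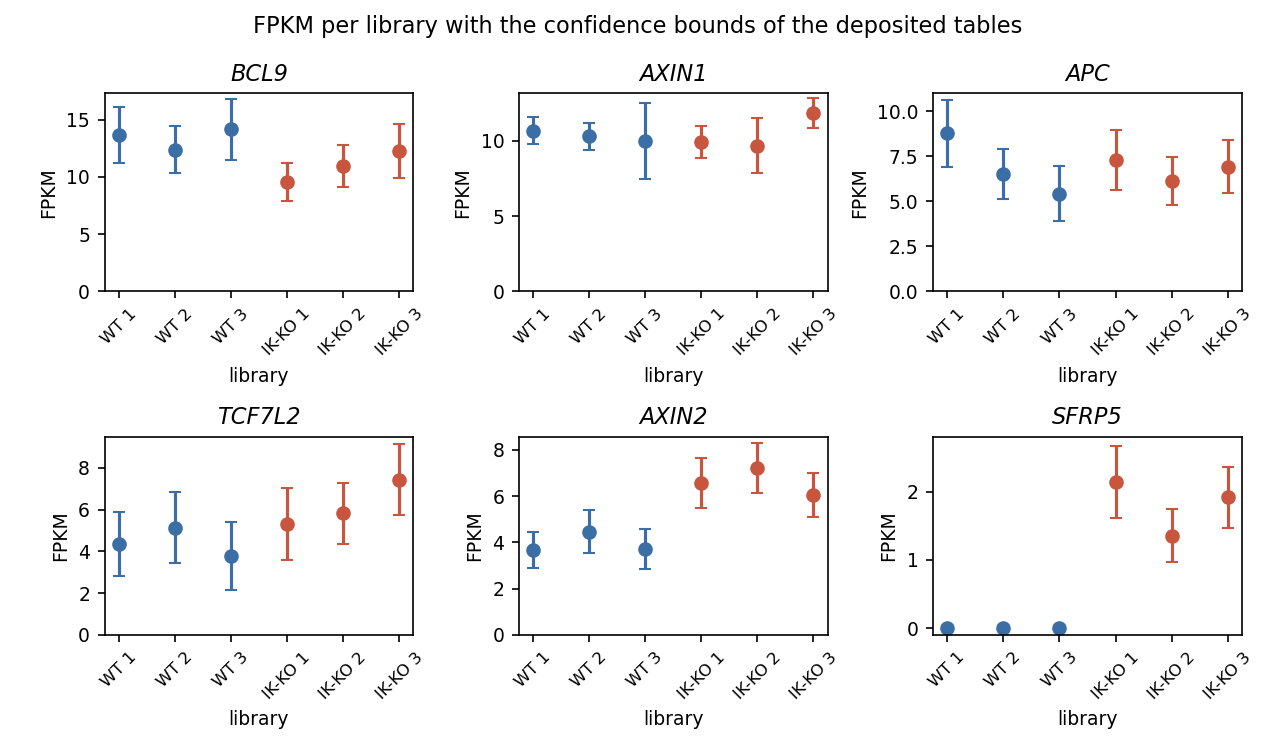
FPKM (vertical axis) of the 6 members below 20 FPKM that were above 1 FPKM in at least 1 group, per library, with the confidence bounds listed in the tables as error bars. WT is blue and IK-KO red. The points separate the groups for BCL9, TCF7L2, AXIN2 and SFRP5 and not for AXIN1 and APC, and the bars of at least 1 WT and 1 IK-KO library overlap for all but SFRP5.

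The rest of the pathway was read from lists of 115 genes in 6 roles, members included. Of these, 55 were tested and 14 were called (25.5%, beside 19.9% of all tested genes), 11 upward and 3 downward, and the median difference was 0.17 in log2 units beside 0.02 over all tested genes. Without the 10 members, 11 of 47 were called, 8 higher and 3 lower, with a median of 0.12. Ligand genes were listed at low levels. All 19 WNT genes had a mean under 1 FPKM, 9 of them were listed at 0 in every library, and WLS, which carries Wnt proteins to the cell surface, was listed at 0 throughout. PORCN, the enzyme that acylates Wnt proteins, was the only tested gene of that list, at 4.13 ± 0.612 and 2.70 ± 0.536 FPKM (SD, n = 3; limma adjusted p 0.0719). None of the 17 secreted and membrane inhibitors passed the limit of 1 FPKM, and 8 were listed at 0 in every library.

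Of 18 receptor genes, 6 were tested and 2 were called (33.3%, beside 19.9% of all tested genes), in opposite directions. LRP6, a coreceptor, was at 4.76, 4.87 and 3.49 FPKM in WT and at 6.79, 6.47 and 5.94 FPKM in IK-KO, which is 0.47 ± 0.13 (SE) in log2 units at a limma adjusted p of 0.0463. This call was lost in 10 of 16 alternatives, among them each of the 6 fits that left out a library (adjusted p from 0.0639 to 0.130) and the removal of neighbours (0.33 in log2 units, adjusted p 0.0707). FZD6, a Frizzled receptor mostly linked to noncanonical signalling, was at 20.9, 20.8 and 18.5 FPKM in WT and at 16.6, 13.5 and 14.9 FPKM in IK-KO, which is −0.40 ± 0.09 (SE) in log2 units at a limma adjusted p of 0.0240. FZD6 lost its call in 5 of 16 alternatives, without WT replicate 1 or 2 or IK-KO replicate 2 or 3 (adjusted p 0.0784, 0.0794, 0.0692 and 0.0670) and with no filter (0.0674). In the destruction complex and cytoplasm list, 4 of 24 tested genes were called (16.7%), all higher: AXIN2, CSNK1A1, DVL3 and CSNK1E. Without the members it was 3 of 21 (14.3%), and both shares lie below the 19.9% of all tested genes. CSNK1A1, the kinase that primes beta-catenin for degradation, rose from 84.9 ± 4.15 to 102 ± 3.28 FPKM (SD, n = 3), which is 0.26 ± 0.05 (SE) in log2 units at a limma adjusted p of 0.0156, and lost its call when WT replicate 1 (adjusted p 0.0526) or IK-KO replicate 1 or 3 (0.0583 and 0.0517) was left out, and with the replicate block (0.0534). DVL3, a relay protein below the receptors, lost its call when WT replicate 1 or 3 or IK-KO replicate 1 or 2 was left out, at adjusted p up to 0.0877. The kinase genes GSK3A and GSK3B had adjusted p of 0.0529 and 0.0945 in limma.

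Among 14 tested nuclear effectors, 4 were called (28.6%), all higher: JUP, LEF1, SMARCA4 and TCF7. Without the members it was 2 of 9 (22.2%), near the 19.9% of all tested genes. JUP, which encodes plakoglobin, a close relative of beta-catenin in cell junctions, had the largest change. It was at 1.21, 1.20 and 1.66 FPKM in WT and at 2.85, 3.73 and 3.66 FPKM in IK-KO, which is 0.90 ± 0.15 (SE) in log2 units at a limma adjusted p of 0.00735. Of 12 listed corepressors and nuclear inhibitors, 10 were tested and 4 were called (40.0%, beside 19.9% of all tested genes). Of these, TLE1 and TLE4 were lower, and CTNNBIP1 and HDAC2 were higher. TLE1 was at 8.98, 8.88 and 7.80 FPKM in WT and at 3.54, 4.52 and 3.59 FPKM in IK-KO, which is −0.97 ± 0.12 (SE) in log2 units at a limma adjusted p of 0.00176. TLE4 was at 14.5, 16.6 and 14.4 FPKM in WT and at 8.99, 6.30 and 7.35 FPKM in IK-KO, which is −0.93 ± 0.13 (SE) in log2 units at a limma adjusted p of 0.00325. Both lie on chromosome 9, where the neighbouring genes were lower too. With their neighbours removed the changes were −0.61 and −0.56, still called (limma adjusted p 0.00884 and 0.0304). TLE3 on chromosome 15 was at 20.3 ± 2.39 and 32.4 ± 8.23 FPKM (SD, n = 3) and was not called (limma adjusted p 0.0555). TLE5 had the highest level of the listed TLE genes, at 255 ± 12.6 and 236 ± 18.4 FPKM (SD, n = 3; limma adjusted p 0.296). Levels of RNA do not tell how much each gene contributes to repression.

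CTNNBIP1, the gene of ICAT, a small protein that keeps beta-catenin from binding TCF factors, was at 18.7, 17.7 and 19.5 FPKM in WT and at 35.0, 46.3 and 38.2 FPKM in IK-KO. It rose by 1.05 ± 0.11 (SE) in log2 units at a limma adjusted p of 0.000800, and was called under all 16 alternatives. HDAC2, a histone deacetylase that works with TLE proteins, rose from 146 ± 8.35 to 252 ± 5.30 FPKM (SD, n = 3), which is 0.79 ± 0.05 (SE) in log2 units at a limma adjusted p of 0.000162, and 0.57 with its neighbours on chromosome 6 removed.

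**Figure D4:**
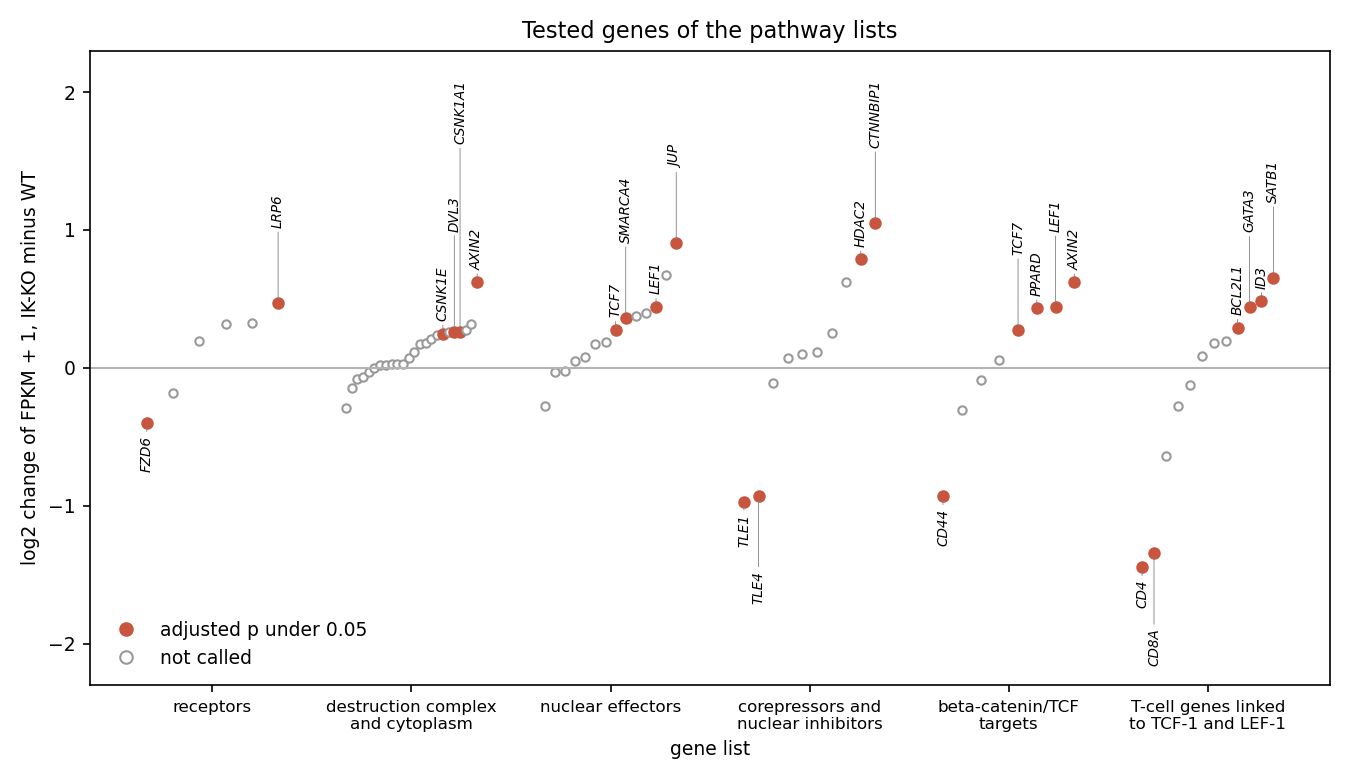
Log2 change of FPKM + 1, IK-KO minus WT (vertical axis), of the tested genes in 4 of the Wnt lists, the beta-catenin/TCF targets and the T-cell genes, with 1 T-cell gene left out. Red points are called and named, and open grey points are not. Called effectors and cytoplasmic genes lie above 0, as do CTNNBIP1 and HDAC2 among the corepressors and nuclear inhibitors. TLE1, TLE4, CD44, CD4 and CD8A lie far below 0. Of the called receptors, LRP6 lies above 0 and FZD6 below it.

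Of 22 common beta-catenin/TCF target genes, 14 were under the limit of 1 FPKM, and 6 were listed at 0 in every library, among them the Wnt feedback genes NKD1, DKK1 and NOTUM. Of the 8 tested, 5 were called (62.5%, beside 19.9% of all tested genes), 4 higher (AXIN2, LEF1, TCF7 and PPARD) and 1 lower (CD44), but 3 of these are members. Without the members, 2 of 5 were called (40.0%), in opposite directions. CD44, an adhesion receptor, fell from 46.9, 41.3 and 39.9 FPKM to 22.3, 20.03 and 23.5 FPKM, which is −0.93 ± 0.09 (SE) in log2 units at a limma adjusted p of 0.000628. PPARD, on chromosome 6, rose by 0.43 ± 0.12 (SE) in log2 units (limma adjusted p 0.0393) and lost its call in 9 of 16 alternatives, among them the removal of neighbours (adjusted p 0.217) and 5 of the 6 fits that left out a library, all but that without WT replicate 2 (adjusted p from 0.0862 to 0.114). MYC was at 183 ± 10.7 and 172 ± 2.63 FPKM (SD, n = 3) and was not called (limma adjusted p 0.317).

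T-cell genes whose expression is linked to TCF-1 or LEF-1 in thymocytes moved in both directions. Of 15 listed, 13 were tested and 7 were called (53.8%, beside 19.9% of all tested genes). Of these, 5 were higher (among them SATB1, ID3, GATA3 and BCL2L1) and 2 lower (CD4 and CD8A). The median log2 change of the tested genes was 0.18, beside 0.02 over all tested genes. SATB1, a chromatin organizer of thymocytes, rose from 62.3 ± 3.40 to 98.6 ± 4.47 FPKM (SD, n = 3), which is 0.65 ± 0.06 (SE) in log2 units at a limma adjusted p of 0.000619. Of the coreceptor genes, 2 fell, CD4 from 2.76 ± 0.178 to 0.384 ± 0.117 FPKM and CD8A from 9.02 ± 0.627 to 2.94 ± 0.331 FPKM (SD, n = 3), log2 changes of −1.45 (SE 0.15) and −1.35 (SE 0.11) with limma adjusted p of 0.00107 and 0.000347. CD8B was at 1.22, 1.28 and 2.86 FPKM in WT and at 0.405, 1.82 and 0.306 FPKM in IK-KO, overlapping and not called (limma adjusted p 0.263). BCL2L1, the gene of the survival protein BCL-xL, lost its call when WT replicate 1 (adjusted p 0.0653) or IK-KO replicate 1 or 2 (0.0651 and 0.0628) was left out, with the replicate block (0.0632) and with no filter (0.0504).

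The genes whose log2(FPKM + 1) followed the 2 abundant factors most closely over the 6 libraries were also read out. For TCF7 they were SLC39A6, a zinc transporter gene, ZNF528-AS1 and RRP36, each with a Pearson r of 0.998. For LEF1 they were DOCK11, with an r of 0.999, and KCTD20 and MORC3, both with an r of 0.998. With 6 libraries in 2 groups such values are not confined to the named genes. Among the 12652 tested genes, members left out, 38 had an r over 0.99 with TCF7 and 57 with LEF1. All 6 named genes were higher in IK-KO, with log2 changes from 0.35 to 0.66. This direction follows from how they were chosen, since TCF7 and LEF1 themselves separate the groups. KCTD20 and RRP36, both on chromosome 6, lost their call with their neighbours removed (limma adjusted p 0.108 and 0.136).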

How the data were processed

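Polyadenylated RNA of MOLT-4 cells was sequenced in 3 WT and 3 IK-KO libraries. The authors deposited gene-level FPKM with confidence bounds and an estimation status, 1 table per library. STAR 2.6.1c, Cufflinks 2.2.1, HOMER 4.10 and hg38 stand in the submitters' processing notes, and the annotation and strand setting are not given in the sources used here. No counts are given, so no count model was used. The study's methods for RNA-seq name a mouse genome and read counts and mention merging of technical replicates, and do not tie this to these libraries.

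Rows of 1 gene identifier were summed (110 identifiers). The 29 genes with a status other than OK in any library were left out. Identifiers were matched to GENCODE release 44, where 49771 of the 49784 shared versions lie at the same GRCh38 position. Coordinates count from 1. The test was limma 3.58.1 (R 4.3.3, moderated variances with a trend on level, two-sided) applied to log2 of FPKM plus 1 for every gene whose mean over the libraries reached 1 FPKM, and p-values were adjusted by Benjamini-Hochberg. This scale understates changes of low genes. The fit was tested on simulated data. Single ratios were compared by an exact permutation test over libraries.

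The members and gene lists were chosen with earlier results of these data known. Named by rule were the members, IKZF1, up to 2 largest called rises and falls per list, and the 3 genes most like TCF7 and LEF1. Other genes were named after their values were seen. The alternatives were another pseudocount (0.1 or 0.5), filter, scaling, variance model or handling of failed estimates, a replicate block, each library left out, and neighbours' changes removed. A called gene of the T-cell list is counted but not reported here.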

Additional observations from a re-analysis of the deposited data

How the results depend on the processing

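The calls of LEF1, TCF7 and AXIN2 held under all 16 alternatives, with log2 changes from 0.34 to 0.48, from 0.16 to 0.30 and from 0.56 to 0.73 and limma adjusted p from 0.000974 to 0.0193, from 0.00383 to 0.0456 and from 0.00725 to 0.0390. TCF7L2, CTNNB1, BCL9, AXIN1 and APC were called under none of the 16. The direction of APC turned with quantile normalization (0.030), without WT replicate 1 (0.16), without IK-KO replicate 2 (0.060) and with its neighbours removed (0.074). That of AXIN1 turned without WT replicate 3 (−0.0036) and without IK-KO replicate 3 (−0.065). With each library left out in turn, APC ranged from −0.14 to 0.16 and AXIN1 from −0.065 to 0.068. The cause was not tested. The count of called members stayed at 3, apart from SFRP5, which passes the filter on low values only through IK-KO (a lower or no filter, or a WT library left out) and is not counted. The Wnt lists had between 11 and 19 called genes and the target list between 4 and 6. Over all genes between 1720 (without WT replicate 1) and 2803 (median-of-ratios scaling) were called, and removing neighbours' changes was an alternative added after the data were seen for the counts and for every gene that is no member. The labels do not say whether equal replicate numbers are a pairing, and the main fit treats the libraries as unpaired. What equally numbered libraries had left after taking off the group mean correlated at 0.067, 0.025 and 0.0055. Such values over all tested genes cannot exclude a pairing. With the replicate block 1805 of all genes were called, against 2515 without it. A single library's bounds limit members under 10 FPKM most, and counting depth could not be had from the tables.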

Other observations

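Several pathway genes under the limit of 1 FPKM were not tested but were listed at different levels in the 2 groups. They were chosen after their values were seen, and the values are a description. WNT3, a canonical ligand gene on chromosome 17, was at 0.150, 0.114 and 0.342 FPKM in WT and at 1.05, 0.881 and 1.24 FPKM in IK-KO. KREMEN2, a receptor for DKK proteins, was at 0.285, 0.236 and 0.414 FPKM in WT and at 0.668, 0.568 and 0.885 FPKM in IK-KO. SFRP4, a relative of SFRP5, was listed at 0 in WT and at 0.0388, 0.257 and 0.241 FPKM in IK-KO, whereas SFRP1 and SFRP2 were listed at 0 in all 6 libraries. FZD3, a Frizzled receptor gene, went the other way, at 0.296, 0.973 and 0.267 FPKM in WT and at 0.0185, 0.0360 and 0.0247 FPKM in IK-KO. So did the ligand gene WNT5A, at 0.138, 0.123 and 0.151 FPKM in WT and at 0.00867, 0 and 0 FPKM in IK-KO. At low levels, WNT1, FZD5 and APC2 were also lower in IK-KO without overlap, and WNT2B, WNT10A and LGR4 were higher. Groups were likewise apart in 39.0% of all tested genes, and no such share was computed for genes under the limit. Margins could be narrow. For WNT10A the highest WT value was 0.0242 FPKM and the lowest IK-KO value 0.0249 FPKM. For WNT1 the lowest WT value was 0.0411 FPKM and the highest IK-KO value 0.0388 FPKM. CTBP2, a corepressor gene that most cells use, was at no more than 0.396 FPKM in any library.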
